A study of Homo sapiens with 10 samples.

Results

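The comparison described here is EOS selection in DU145, an androgen-independent human prostate cancer line derived from a brain metastasis. It was read from 4 of the 10 Affymetrix expression arrays of the study: DU145 EOS 1 and 2 against DU145 PGK 1 and 2. The 4 arrays were chosen by their titles, and a DU145 array of EOS cells given ribavirin was left out. EOS cells carried a vector in which OCT4 and SOX2 enhancers drive GFP and puromycin resistance, and were enriched by growth in puromycin over some weeks. PGK cells carried GFP and puromycin resistance under the PGK promoter, which is active in most cell types. The other 6 arrays were the ribavirin array, and 2 PGK, 2 EOS and 1 ribavirin array of LNCaP, another prostate cancer line. Both DU145 groups thus carried GFP and puromycin resistance, under different promoters. The labels do not say whether PGK cells were also kept in puromycin, nor whether arrays 1 and 2 came from separate cultures, so a p-value here speaks to array-to-array spread that may be technical only. The RNA came from bulk cultures, where fewer cells of a type and less RNA per cell cannot be told apart.

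OCT4 and SOX2 are transcription factors that bind next to each other on DNA and hold embryonic stem cells in the pluripotent state. A reporter built from their enhancers marks cells in which such enhancers are active, and a resistance gene behind it lets those cells outgrow the rest. In carcinoma, reporters of this kind have been used to look for cells with stem-like or tumour-initiating traits, which are often described by CD44, by aldehyde dehydrogenases and by loss of epithelial adhesion. Interferon-induced genes and antigen presentation genes form a further programme, in which IRF and NF-kappaB family factors act at promoters.

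Values are log2(scaled intensity + 16), in which each array was scaled to a 2% trimmed mean of 500. The lowest possible value is 4. A difference is EOS minus PGK within an array number, so pair 1 is EOS 1 minus PGK 1 and pair 2 is EOS 2 minus PGK 2. A gene is called bright when its mean over the 4 DU145 arrays was at least 8, a scaled intensity of 240. The DU145 label was checked on marker genes. KRT18, a keratin of simple epithelia, lay between 13.51 and 14.15 in the 4 arrays, CD44 between 11.25 and 11.74 and EGFR between 11.29 and 11.67. KLK3 and KLK2, the androgen-responsive kallikreins of luminal cells, lay between 5.44 and 5.89 and between 4.42 and 4.86. The other kept probe sets of KLK3 averaged 5.185 and 8.733 over the 4 arrays. The latter is above the bright limit, so KLK3 was not low in each of its probe sets. POU5F1, which encodes OCT4, and PROM1 were not among the genes tested, so OCT4 itself was not read here.

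The array numbers differed in deposited scale and in a 3′ to 5′ ratio. The 2 DU145 arrays numbered 1 had deposited trimmed means of 500, and those numbered 2 had 126.5 (PGK) and 96.56 (EOS). The 3′ to 5′ signal ratio of ACTB, which grows as RNA is shortened, was 1.24 in PGK 1 and 1.30 in EOS 1 but 3.50 in PGK 2 and 3.77 in EOS 2. The same ratio of GAPDH was 0.959 and 1.06 in PGK 1 and EOS 1 and 1.21 and 1.22 in PGK 2 and EOS 2, a smaller gap in the same direction. Both moved with the number more than with the group, and their part in the results was not tested. Among other cell types, 6 of 10 fibroblast markers were tested and their summed scaled intensity was 489.6 and 757.5 in the PGK arrays and 496.8 and 2903 in EOS 1 and EOS 2. POSTN, an extracellular matrix protein, read 5.58 and 7.24 in PGK 1 and 2 and 6.75 and 10.77 in EOS 1 and 2. COL3A1, a fibrillar collagen, read 6.0 and 5.71 against 6.25 and 9.01, so the EOS 2 array alone was high (both were picked once their values were known). Of the 6 markers 4 had means above 0 and 2 below. COL1A1, another fibrillar collagen and the only bright marker, was -0.55 and -0.03. The 5 tested leukocyte markers summed to 248 and 139.3 in PGK and 301 and 301.8 in EOS, and none was bright. The part of other cell types in the results was not tested.

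The 2 pairs shared little. Across 14313 genes the correlation of pair 1 with pair 2 differences was 0.00913 (Pearson, with genes that are not independent replicates and no test), and over the 9067 bright genes it was -0.0248. The sign was shared by 49.8% of all genes and 50.1% of the bright ones. In LNCaP the same correlation was 0.0827 over all genes and 0.164 over the bright ones. The spread of the differences was wider in pair 1, with an SD of 0.36 over bright genes, than in pair 2, with 0.26. No gene passed limma's test over all genes (lowest adjusted p = 1), 226 genes (1.58%) had an unadjusted p under 0.05, and 0 passed with the replicate block, where the lowest adjusted p was 0.221 and 480 were under 0.05. An exact two-sided permutation test of 2 arrays against 2 cannot go below p = 0.333. The counts below are therefore descriptions, most of them of genes that lay the same way in both pairs, and none is a call. Over all genes tested, 52.8% had a mean difference below 0 and 47.2% above, 26.5% lay below 0 in both pairs and 23.4% above 0 in both. Both EOS arrays lay above both PGK arrays in 13.2% of all genes tested and below them in 16%. Among bright genes the shares were 12.2% and 14.9%, so such separation, given below for single genes, was common.

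**Figure D1:**
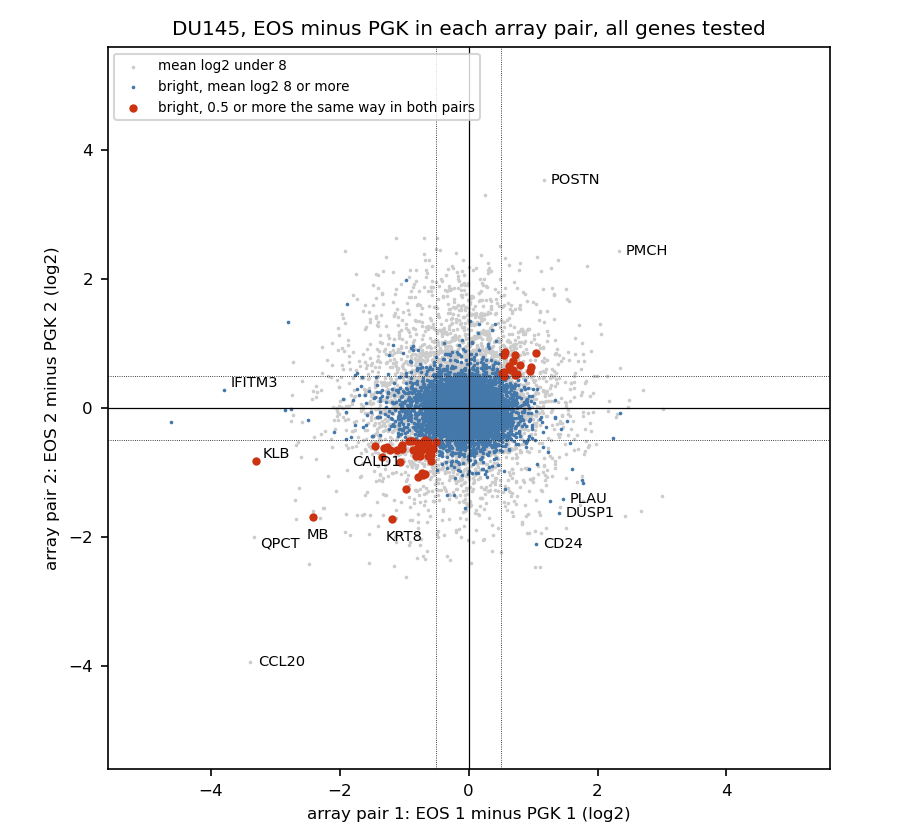
Difference EOS minus PGK (log2) of 14313 genes in array pair 1 (horizontal) and pair 2 (vertical). Grey points are genes with a mean under 8, blue points are bright genes, red points are bright genes that lay at least 0.5 the same way in both pairs, and dotted lines mark 0.5. The cloud is round, CCL20 lies far down the lower left, and CD24, DUSP1 and PLAU lie low on the right.

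At a size of at least 0.5 in both pairs, 237 of 14313 genes were higher in EOS (1.66% of those tested) and 311 lower (2.17%), while 531 passed that size in opposite directions. Among the bright genes 16 were higher (0.176%), 43 lower (0.474%) and 63 opposite. At a size of 1 in both pairs, 35 genes were higher, 51 lower and 97 opposite, and among bright genes there were 0, 2 and 8. At 2 or more only 3 genes were left, with none opposite: CCL20 and YPEL3 lower, and PMCH higher. The 2 bright genes lower by at least 1 were MB and KRT8. Just inside the limit of 0.5 were DYNC1H1 with 0.55 and 0.50 and STRIP2 with -0.67 and -0.50. Just outside were AHNAK with 0.54 and 0.50 (0.496 before rounding) and IFFO2 with -0.49 and -0.96. The split of 16 higher and 43 lower depends on how the arrays are put on one scale: it was 0 and 233 on unscaled values, where the median of all genes moved from -0.0165 to -0.18, and 5 and 174 with medians made equal, where it was -0.14. Relative to that median it was 12 and 38, and 17 and 41.

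CCL20, a chemokine that attracts dendritic cells and lymphocytes and is a target of NF-kappaB, was the gene with the largest shared difference. It read 9.54 and 8.64 in PGK 1 and PGK 2 and 6.15 and 4.70 in EOS 1 and EOS 2. Both EOS arrays lay below both PGK arrays, with pair differences of -3.39 and -3.94 and a mean of -3.66 ± 0.60 (limma SE, 2 arrays per group; adjusted p = 1, and 0.221 with the block). Of all genes tested, 16% also had both EOS arrays below both PGK arrays. The 2 EOS values of CCL20 are near the floor of 4, so the size depends on the offset: -4.41 with an offset of 1 and -2.66 with 64. In LNCaP the pairs gave -0.0026 and -1.88. Of the chemokines and cytokines as a list, 11 of 17 lay below 0, where 52.8% of all genes tested did, and 6 did so in both pairs, where 26.5% did. The list median was -0.04, which turned to 0.04 with 7 of 17 below 0 without PGK 1 and was -0.31 with 13 below without PGK 2. CXCL2, a neutrophil chemokine, gave -0.56 and -0.12, and CXCL5, of the same family, -0.42 and -0.08. CXCL16, a membrane-bound chemokine, was -0.27 and -0.84, and IL18, a cytokine of the interleukin-1 family, was -0.78 and 0.21. A list of NF-kappaB feedback targets was split, with 8 of 17 above 0 and 9 below, and 2 higher and 3 lower in both pairs. Its medians were 0.04 in pair 1 and -0.04 in pair 2.

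Upstream sequences are shown for the largest shared difference (CCL20), for 2 interferon effectors, and for a gene with an octamer, the kind of element OCT proteins bind. RefSeq promoters were taken from the GRCh38.p14 table, 250 bases before each start, and 23 of the 29 tested interferon effector genes, 15 of the 18 class I genes and 12 of the 17 chemokines had an entry. The letters searched on both strands were GAAA, any 2 bases and GAAA for the interferon-stimulated response element, GGG, any 2 bases, TT, any base and CC for an NF-kappaB site, ATGCAAAT for the octamer that OCT family proteins bind, CATTGT for a SOX site and TATAAA for a TATA box, and the CArG box of serum response factor was searched by name. Overlapping hits count as separate hits. Capitals mark the response element, NF-kappaB, octamer and CArG hits. A hit is a description of these letters and shows no binding.
CCL20 (chr2:227813592-227813841, plus strand): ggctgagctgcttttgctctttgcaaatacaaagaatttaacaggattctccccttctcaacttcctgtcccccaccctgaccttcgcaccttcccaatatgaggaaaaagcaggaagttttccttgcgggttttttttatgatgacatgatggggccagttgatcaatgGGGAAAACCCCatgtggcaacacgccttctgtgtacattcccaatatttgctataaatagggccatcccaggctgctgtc
IFI6 (chr1:27672193-27672442, minus strand): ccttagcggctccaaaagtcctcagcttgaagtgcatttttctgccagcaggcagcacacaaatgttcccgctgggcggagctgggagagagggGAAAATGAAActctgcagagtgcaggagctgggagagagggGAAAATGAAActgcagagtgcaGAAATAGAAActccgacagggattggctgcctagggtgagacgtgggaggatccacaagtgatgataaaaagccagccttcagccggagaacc
ISG15 (chr1:1013247-1013496, plus strand): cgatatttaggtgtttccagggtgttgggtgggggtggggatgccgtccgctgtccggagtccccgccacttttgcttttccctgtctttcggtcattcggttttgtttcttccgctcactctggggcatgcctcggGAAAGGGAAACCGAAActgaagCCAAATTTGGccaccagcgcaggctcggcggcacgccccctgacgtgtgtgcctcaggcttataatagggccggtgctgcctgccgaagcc
NFIA (chr1:61076977-61077226, plus strand): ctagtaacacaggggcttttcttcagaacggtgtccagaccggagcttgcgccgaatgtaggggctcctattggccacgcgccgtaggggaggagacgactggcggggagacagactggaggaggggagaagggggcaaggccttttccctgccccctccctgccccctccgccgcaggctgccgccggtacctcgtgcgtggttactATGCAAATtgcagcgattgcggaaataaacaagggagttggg
The CCL20 window held 2 overlapping NF-kappaB hits, whose first bases lie 79 and 80 bases before the start, and a TATA box 29 bases before it. IFI6 held 3 response elements and ISG15 held 2 that overlap, with a CArG box nearby. NFIA held the octamer 42 bases before its start. The NF-kappaB letters were in 7 of the 12 chemokine promoters (58.3%) against 5.08% of all 27305 promoters. The response element was in 13 of 23 effector promoters (56.5%) and in 6 of 15 class I promoters (40%) against 3.07% of all. These shares describe the lists and not the EOS difference. Of the bright genes higher by 0.5 in both pairs, 1 of 14 promoters held the response element (7.14%) and 0 the NF-kappaB letters. Of those lower by 0.5, 1 of 36 (2.78%) and 2 of 36 (5.56%) did, against 2.19% and 6.06% of all bright genes. The octamer was in 1 of the 14 promoters of the bright genes higher in both pairs (7.14%), which is NFIA. It was in 0 of the 36 of those lower, against 1.06% of all bright genes and 1.66% of all promoters. The SOX site and the TATA box were also each in 1 of the 14, as the response element was. Among the dimmer genes named, YPEL3, which was lower in both pairs, also held an octamer, 98 bases before its start.

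The interferon effector list, proteins that block viruses at entry, translation and RNA decay, leaned lower in EOS. Of the 29 tested, 24 had a mean difference below 0, where 52.8% of all genes tested did. Lower in both pairs were 17, where 26.5% of all genes tested were. The median was -0.43, with -0.47 in pair 1 and -0.12 in pair 2, against -0.0165 over all genes. The 14 bright members had medians of -0.56 in pair 1 and -0.05 in pair 2. Of the 29 genes 4 lay at least 0.5 lower in both pairs (2.17% of all genes tested did), and 0 lay that much higher. None passed limma (adjusted p = 1 for each). With each DU145 array left out in turn, 20 to 23 of 29 lay below 0 and the median ran from -0.23 to -0.47.

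The 4 were IFIT2, IFIT3, OASL and IFI6, of which IFIT3 and OASL fall outside the naming rule and were chosen after their values were seen. Only IFI6 was bright, where 0.474% of all bright genes lay that much lower. Of the 5246 genes that were not bright, 268 did. IFIT2, which binds viral RNA and restrains translation, read 7.98 and 7.98 in PGK and 7.10 and 7.08 in EOS. Its arrays within a group were nearly equal, and both EOS arrays were lower, by -0.88 and -0.91; another IFIT2 probe set, dimmer, went the other way, at 0.26 and 0.83. OASL, a 2-5A synthetase-like protein, was -0.79 and -0.74. IFIT3, a partner of IFIT2, was -0.90 and -0.54. IFI6, a membrane protein of the endoplasmic reticulum and mitochondria, read 10.21 and 10.09 in PGK and 9.28 and 9.58 in EOS, with both EOS arrays lower. ISG15, a ubiquitin-like modifier, read 10.10 and 9.96 against 9.45 and 9.69 (-0.65 and -0.27). It differed by -0.46 ± 0.19 (limma SE, adjusted p = 1), and the EOS arrays again lay below the PGK arrays.

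The IFITM genes, whose products stop virus entry at membranes, were low in pair 1 only. IFITM3 read 9.94 and 8.33 in PGK and 6.15 and 8.61 in EOS, so EOS 1 was the low array. IFITM2 was -2.84 in pair 1 and -0.04 in pair 2. ISG20, an RNase, was -1.57 and -0.10. The sensors and factors upstream leaned less, with 8 of 12 below 0, where 52.8% of all genes tested were. Their median was -0.13, which ran from -0.08 without PGK 1 to -0.27 without PGK 2. IRF9, the DNA-binding part of the interferon-activated complex, was -0.66 and -0.33, IRF1 -0.49 and -0.13, IFNGR1, the interferon gamma receptor, -0.31 and -0.43, and IFNAR2 -0.20 and -0.18.

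**Figure D2:**
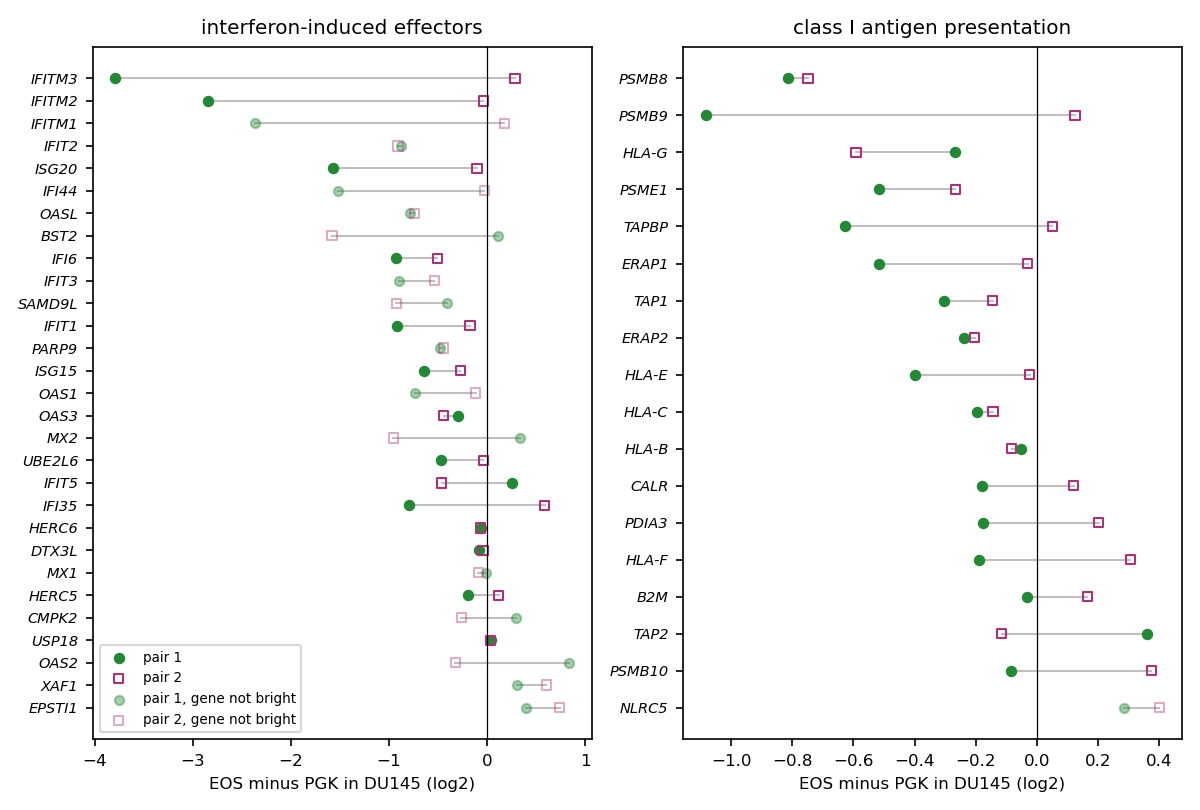
Difference EOS minus PGK (log2) in pair 1 (filled circles) and pair 2 (open squares) for 29 interferon-induced effectors (left) and 18 class I presentation genes (right), sorted by the mean of the pairs; pale marks are genes that are not bright. IFITM3 and IFITM2 lie low in pair 1 only, IFIT2 and OASL lie at almost the same place in both pairs, and PSMB8 tops the right panel with both marks below -0.7.

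Genes of class I antigen presentation, which cut proteins into peptides and load them on HLA molecules, leaned lower more weakly. Of 18 tested, 12 lay below 0, where 52.8% of all genes tested did. Lower in both pairs were 9 of 18, all of them bright (27% of all bright genes were), and the median was -0.19 (-0.22 in pair 1 and -0.03 in pair 2). PSMB8, an immunoproteasome subunit that replaces a standard catalytic subunit, was the one member lower by 0.5 in both pairs. It read 8.93 and 8.83 in PGK and 8.11 and 8.09 in EOS, and both EOS arrays were lower, by -0.81 and -0.75. Its limma SE, from a spread shared by all groups, was 1.26. PSMB9, the companion subunit, was -1.08 and 0.12. PSME1, a proteasome activator, was -0.52 and -0.27, and HLA-G, a non-classical class I gene whose probes resemble those of its relatives, was -0.27 and -0.59. The other kept probe sets of HLA-G gave -0.35 and -0.53, 0.07 and -0.23, and 0.10 and 0.30, so they did not share its direction throughout. Without PGK 1 the list median was -0.04 and 11 of 18 lay below 0.

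Actin and contractile genes as a list were split, with 12 of 23 above 0 and 11 below, 8 higher and 6 lower in both pairs, and a median of 0.05 that was -0.01 without PGK 2. Within it CALD1, caldesmon, which binds actin and tropomyosin, read 11.67 and 11.76 in PGK and 10.61 and 10.92 in EOS. Both EOS arrays lay lower, by -1.06 and -0.84, with a mean of -0.95 ± 0.16 (limma SE, adjusted p = 1, and 0.24 with the block). All 6 of its other kept probe sets had means below 0, and 4 lay below 0 in both pairs. CEMIP2, a cell surface hyaluronidase, read 11.12 and 10.96 against 10.15 and 9.71, with EOS again lower in each. KRT8, the keratin partner of KRT18, read 11.84 and 10.13 in PGK and 10.65 and 8.42 in EOS. The groups overlapped, since PGK 2 lay below EOS 1, although EOS was lower within each pair, by -1.19 and -1.72. The mean difference of KRT8 was -0.33 without EOS 2 and -0.60 without PGK 1. TGFBI, a matrix protein induced by TGF-beta, read 13.13 and 11.24 against 12.34 and 10.17 and also overlapped. Its pairs were -0.79 and -1.07, and without PGK 1 or EOS 2 its mean was 0.019 and 0.16.

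MB, myoglobin, an oxygen-binding protein of muscle that carcinoma cells can also make, had the largest shared difference among bright genes. It read 10.07 and 8.35 in PGK 1 and 2 and 7.67 and 6.66 in EOS 1 and 2. Both EOS values lay below both PGK values, with pairs of -2.41 and -1.69 and a mean of -2.05 ± 0.54 (limma SE, adjusted p = 1, and 0.221 with the block). KLB, beta-klotho, a co-receptor for endocrine FGFs, read 10.14 and 9.22 against 6.85 and 8.40, and most of its difference was in pair 1. SLPI, a secreted inhibitor of leukocyte proteases, read 11.36 and 11.09 against 10.03 and 10.33 with no overlap. CHDH, which oxidises choline in mitochondria, was -0.73 and -1.01, MAN2B2, a mannosidase, -0.75 and -0.74, BCORL1, a transcriptional corepressor, -0.79 and -0.72, and HLA-DMB, which helps load class II molecules, -0.70 and -1.04. The other 31 lower bright genes, named here after their values were seen, included CTSH, a lysosomal protease (-1.12 and -0.65), EPAS1, the hypoxia factor HIF-2 alpha (-0.68 and -1.02), CITED2, a transcription coregulator (-1.22 and -0.65), PALLD, an actin-bundling protein (-1.03 and -0.63), and F2R, the thrombin receptor (-1.32 and -0.62). Other kept probe sets were below 0 in both pairs in 0 of 1 for F2R and 1 of 2 for BCORL1. They were so in 2 of 3 for PALLD, 2 of 5 for CHDH and 1 of 1 for CITED2.

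The bright genes higher in both pairs were fewer and lay within 0.50 to 1.05 in each pair. TRIO, a guanine nucleotide exchange factor, read 11.42 and 11.74 in PGK and 12.15 and 12.56 in EOS. Both EOS arrays lay above both PGK arrays, by 0.73 and 0.83, and all 6 other kept probe sets lay above 0 in both pairs. PACS2, a sorting protein of the endoplasmic reticulum and mitochondria, read 9.93 and 9.56 against 10.98 and 10.41, but none of its 3 other probe sets shared the direction. FOXD1, a forkhead transcription factor, read 10.84 and 11.36 against 11.63 and 12.03. It was higher by 0.80 and 0.67, and in LNCaP by 0.94 and 1.30. NFIA, a nuclear factor I transcription factor whose promoter is printed above, read 8.86 and 9.55 against 9.50 and 10.20. The groups overlapped, since EOS 1 lay below PGK 2, the pairs were 0.63 and 0.65, and 4 of 5 other kept probe sets lay above 0 in both pairs.

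Genes under the brightness limit gave larger numbers that rest on dim signal. PMCH, the precursor of melanin-concentrating hormone, read 4.28 and 4.27 in PGK and 6.62 and 6.70 in EOS. The PGK values sat at the floor, and the mean of 2.39 became 4.31 with an offset of 1 and 1.15 with 64. MATN1, a cartilage matrix protein, read 5.22 and 4.73 against 7.06 and 6.93. C9orf163 (1.56 and 1.67) and GTSE1-DT (1.53 and 1.69) were the other higher genes. On the lower side YPEL3, of a family named after Drosophila Yippee, read 8.0 and 7.46 against 5.52 and 5.04, although its 1 other probe set did not share the direction. QPCT, which closes glutamine ends of peptides, was -3.33 and -2.00 (just short of 2), and RPH3A, a vesicle protein of neurons, -1.92 in both pairs. RNF43, a ubiquitin ligase that restrains Wnt receptors, was -2.18 and -1.06. EIF4E, the cap-binding translation factor, was 0.23 and -0.23, IMPDH1 0.14 and 0.15 and IMPDH2, its partner in guanine nucleotide synthesis, -0.13 and 0.16.

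The remaining higher genes named by the rule were NPR3, the natriuretic peptide clearance receptor (0.97 and 0.63), MDN1, an ATPase of large ribosomal subunit assembly (0.66 and 0.59), IKBKE, a kinase of innate signalling (0.69 and 0.58), ATAD3A, a mitochondrial ATPase (0.96 and 0.58), MZT2B, a gamma-tubulin ring subunit (0.56 and 0.87), FIGN, a microtubule-severing enzyme (0.55 and 0.82), DNAH5, a ciliary dynein heavy chain (0.55 and 0.56), and SKIDA1 (0.69 and 0.74). The other kept probe set of IKBKE gave 0.03 and -0.17, that of SKIDA1 1.32 and -0.75, and that of DNAH5 0.38 and -0.09. Of the 3 other kept probe sets of FIGN, 2 lay above 0 in both pairs. As a description with no test, the genomic span of the 16 higher genes had a median of 94.6 kb, and 7 of 16 (43.8%) were over 100 kb, against 32.0 kb and 18.1% of all bright genes. The 43 lower genes had a median of 43.6 kb.

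**Figure D3:**
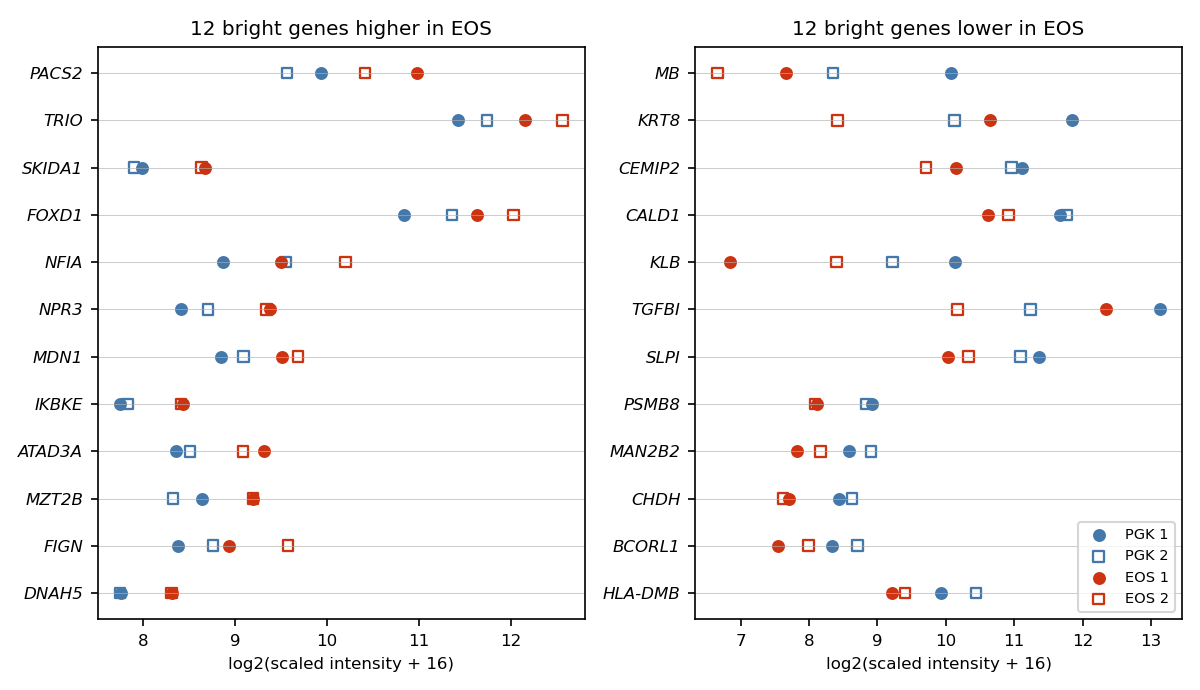
Level in each of the 4 arrays (log2 of scaled intensity + 16) of the 12 bright genes named as higher (left) and the 12 named as lower (right); blue is PGK, red is EOS, filled circles are arrays numbered 1 and open squares those numbered 2. NFIA, KRT8 and TGFBI show arrays of one number standing apart from the other, while CALD1, SLPI and PSMB8 show clear gaps between blue and red.

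Epithelial genes were lower mainly in pair 1. Of 29 tested junction and epithelial identity genes, 24 lay below 0 (52.8% of all genes tested did) and 16 in both pairs (26.5% did). The median was -0.21, with -0.72 in pair 1 and -0.02 in pair 2, and the 13 bright members had a median of -0.24 in pair 1 and 0.09 in pair 2. EPCAM, an adhesion molecule of simple epithelia, read 9.05 and 8.64 in PGK and 7.56 and 8.20 in EOS. All EOS values lay lower, by -1.49 and -0.44, and the mean was -0.96 ± 0.25 (limma SE, adjusted p = 1). CDH1, E-cadherin, was not bright and gave -1.42 and -0.37. The desmosome genes PKP2, JUP and DSC2 gave -1.03 and -0.32, -0.83 and -0.29, and -0.72 and -0.56. Without EOS 1 the list median was -0.09 with 17 of 29 below 0, and without EOS 2 it was -0.62 with 26. The 6 tested keratins all had means below 0, with 3 lower in both pairs, where 26.5% of all genes tested were. Their median was -0.36, which ran from -0.12 without EOS 2 to -1.01 without EOS 1. KRT18 was -0.37 and -0.27, KRT7 0.56 and -1.26, and KRT80 0.26 and -1.02. Of 14 integrins 13 lay below 0, where 52.8% of all genes tested did, with a median of -0.17 that became 0.05 without EOS 1. ITGA3, a laminin receptor chain, was -0.47 and -0.30. Mesenchymal genes were split: 10 of 17 lay above 0 and 7 below, 4 were higher and 5 lower in both pairs, and the median of the gene means was 0.14, while the medians of the pairs were -0.10 and -0.05. VIM, an intermediate filament of mesenchymal cells, was 0.11 and 0.42, TWIST2, a transcription factor, -0.24 and -0.33, and S100A4, a calcium-binding protein, -1.51 and -0.06.

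The genes tied to the reporter and to stem-like cells gave mostly small differences. Of 22 pluripotency genes 9 were tested, and 7 were higher in both pairs, where 23.4% of all genes tested were, with a median of 0.25 (0.18 and 0.34). SOX2 read 5.81 and 6.14 in PGK and 6.34 and 6.47 in EOS, near the floor, with pairs of 0.53 and 0.33. Its other kept probe set, at almost the same level, gave -0.31 and 0.53, so the direction of SOX2 was not shared by its probe sets in pair 1. MYC was 0.08 and 0.34, DNMT3B, a DNA methyltransferase, 0.31 and 0.18, and KLF4 0.18 and -0.20. CD44 was 0.36 and -0.19 on the probe set used. Of its 7 other kept probe sets, 4 lay above 0 in both pairs, the largest at 0.75 and 1.03. The rest lay in opposite directions by pair, so the direction of CD44 was not shared by its probe sets. The aldehyde dehydrogenases, some of which are used to mark tumour-initiating cells, leaned lower, with 10 of 11 below 0, 7 in both pairs (26.5% of all genes tested were) and a median of -0.24 (-0.50 and -0.09). ALDH1A3, which makes retinoic acid, read 11.34 and 10.79 in PGK and 10.35 and 10.34 in EOS, and both EOS arrays lay lower. ALDH3B1 was -0.53 and -0.47, ALDH2 -0.50 and -0.16, and ALDH7A1 -1.04 and -0.02. Without EOS 1 the list median was -0.08, with 6 of 11 below 0.

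Nucleolar and ribosome biogenesis genes were slightly higher. All 26 tested had means above 0 (47.2% of all genes tested did) and 17 were higher in both pairs (23.4% were), with a median of 0.15 (0.30 in pair 1 and 0.06 in pair 2). On unscaled values that median was -0.03, or 0.15 above the median of all genes. UTP20, needed to process small subunit rRNA, read 10.05 and 9.999 in PGK and 10.57 and 10.43 in EOS, both EOS arrays higher, by 0.52 and 0.43. RRP12, a ribosome export factor, was 0.74 and 0.11, PES1 0.34 and 0.30 and PNO1 0.58 and 0.05. Without EOS 1, 14 of 26 lay above 0 and the median was 0.02. The G2/M and mitosis genes gave 26 of 31 above 0, where 47.2% of all genes tested were. Their median was 0.10, with 0.25 in pair 1 and -0.03 in pair 2. Without EOS 1 the median was 0.05 with 18 of 31 above 0. CENPF, a kinetochore protein, was 0.44 and 0.57, and CENPE, a kinetochore motor, 0.66 and 0.28.

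**Figure D4:**
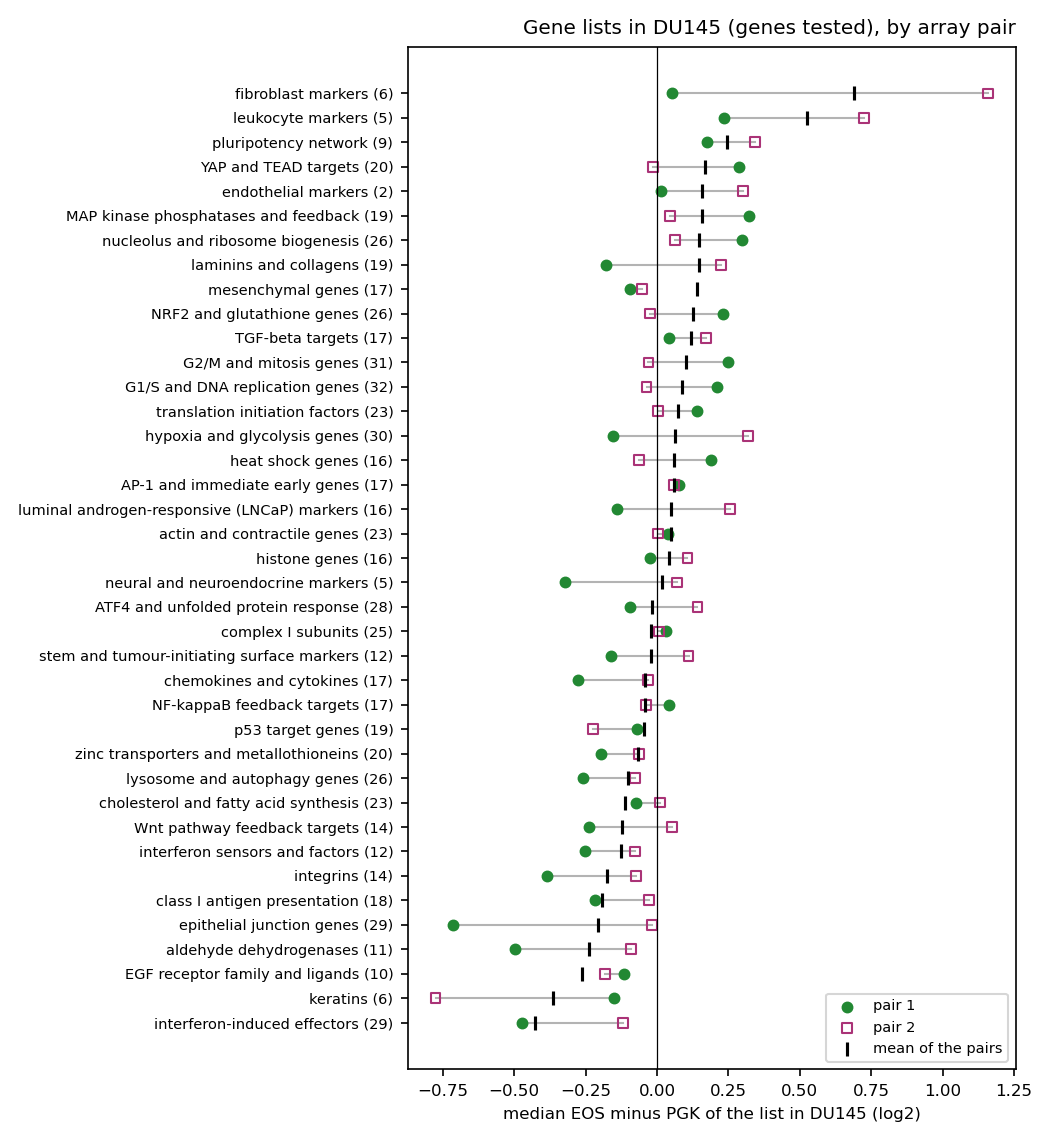
Median difference EOS minus PGK (log2) of 39 gene lists in pair 1 (filled circles), pair 2 (open squares) and of the mean of the pairs (bars), with the number of genes tested in brackets. The mean of the pairs is taken per gene, so its median need not lie between the other 2, and the interferon-induced effectors and keratins lie lowest.

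Some bright genes lay in opposite directions in the 2 pairs. The bright genes that differed by at least 1 in opposite directions were 8, chosen after their values were seen: AKR1C1, AKR1C2, ANKRD2, CD24, DUSP1, KISS1R, PLAU and SLC2A3. DUSP1, a phosphatase that switches off MAP kinases, read 11.44 and 11.26 in PGK and 12.85 and 9.63 in EOS, so EOS 1 was the highest array and EOS 2 the lowest. CD24, a surface glycoprotein, read 11.39 and 10.02 against 12.44 and 7.90. PLAU, the urokinase protease, was 1.46 and -1.42. AKR1C1, a steroid and aldehyde reductase, was 1.76 and -1.11, and SLC2A3, a glucose transporter, -2.80 and 1.33. Among targets of YAP and TEAD, CCN2, a matricellular protein, was 2.24 and -0.47, and ANKRD1, an ankyrin repeat protein, 2.35 and -0.07.

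Set against LNCaP, no gene passed a test of the difference in EOS effect between the lines (limma interaction, lowest adjusted p = 1, with 464 at an unadjusted p under 0.05; lowest adjusted p = 0.544 with the block). Of the 16 higher bright genes 4 were higher in both LNCaP pairs (25%, against 31.2% of all bright genes), and of the 43 lower ones 10 were lower in both (23.3%, against 25.9%) and 17 were higher in both (39.5%, against 31.2%).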

How the data were processed

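Total RNA of 10 arrays was measured on an Affymetrix array of 54675 probe sets, 4 of them the DU145 arrays used here. The deposited values are linear intensities, one per probe set. MAS5 and affy are listed in the submitters' processing notes with no version or role, and the background correction is not given in the sources used here. Each array was scaled to a 2% trimmed mean of 500, and log2(intensity + 16) was taken. The offset shrinks differences of dim genes. Of all 54675 probe sets, 41097 had 1 gene symbol, 1801 several and 11777 none. The 62 controls among them were used in the scaling and then left out. Probe sets above the array median in at least 2 arrays were kept (33451). For each of 14313 genes its brightest probe set by mean was used, and 9067 of the genes were bright.

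Tests used limma (version 3.58.1, R 4.3.3), with cell means of the 6 groups of all 10 arrays with 4 residual degrees of freedom and an intensity trend, at a Benjamini-Hochberg adjusted 0.05. The ribavirin groups have 1 array each. The steps were tested on simulated data. Differences were taken within an array number because the numbers differed in deposited scale, and a replicate block was run as an alternative. Deviations from the group mean of same-numbered arrays correlated with r = 0.48 in LNCaP but only 0.12 in DU145. With 2 arrays a group, precision is limited throughout.

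Named genes were the 12 bright genes higher and 12 lower by the smaller of the pair differences, 4 each way among the rest, up to 4 bright members of each of 39 lists by mean difference, and a fixed set. The members and lists were chosen with earlier results of these data known. Genes outside the rule are said to be so. Alternatives were the offset, scaling, filter, probe set choice, agreement size, block and each array left out. Centring each pair on its median, and counting list members with arrays left out, were chosen after seeing the data.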

Additional observations from a re-analysis of the deposited data

Results flagged for a closer look

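The medians of 11 gene lists lay on one side of 0 in both DU145 pairs and on the other side in both LNCaP pairs, and the difference between the lines was not tested for any list. The DU145 minus LNCaP difference of the medians was -0.77 for interferon-induced effectors, whose median was -0.47 and -0.12 in the DU145 pairs and 0.40 and 0.45 in the LNCaP pairs. For class I presentation genes it was -0.75, with LNCaP pair medians of 0.32 and 0.81. It was -0.43 for aldehyde dehydrogenases (-0.425 before rounding), -0.43 for the EGF receptor family and ligands (-0.426), -0.41 for chemokines and cytokines (-0.409), -0.35 for epithelial junction genes (-0.351), -0.33 for p53 targets (-0.325), -0.16 for mesenchymal genes (-0.161), whose DU145 pair medians were -0.10 and -0.05 although the median of their gene means was 0.14, above 0 as in LNCaP (0.30), and -0.05 for zinc transporters and metallothioneins (-0.0543). For the zinc list the median of the gene means was below 0 in both lines, at -0.066 in DU145 and -0.012 in LNCaP. In the other direction the difference was 0.52 for nucleolus and ribosome biogenesis genes (0.515), whose LNCaP pair medians were -0.29 and -0.36. It was 0.23 for translation initiation factors, whose DU145 pair medians were 0.14 and only 0.0028.

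Among 1891 bright probe sets without a single gene symbol, which the comparison leaves out, 6 lay at least 1 the same way in both pairs. The mean differences of 5 were above 0: 1.75 for 235705_at, 1.37 for 232150_at, 1.24 for 232541_at, 1.24 for 236610_at and 1.02 for 240128_at. That of 233847_x_at was -1.34. Probe set 235705_at read 8.57 and 7.82 in PGK and 9.86 and 10.02 in EOS, so both EOS arrays lay above both PGK arrays. The annotation used here gives these 6 no gene symbol.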

How the results depend on the processing

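limma called 0 genes in every setting run for the EOS effect and for the DU145 minus LNCaP difference, including the replicate block (480 and 1032 genes at an unadjusted p under 0.05) and each array left out. Counts of genes lying 0.5 the same way in both pairs moved with the settings. Higher among all genes was 383 with an offset of 1, 70 with 64, 57 unscaled, 616 without the filter, 123 with the filter on DU145 arrays, 35 at a size of 1 and 3349 at any size. Lower among all was 133 with an offset of 64, 501 unscaled, 110 unscaled and centred on each pair's median, 578 with medians made equal, 557 without the filter, 51 at 1 and 3786 at any size. Higher among bright genes was 9 with 64, 0 unscaled, 5 with equal medians, 0 at 1 and 2102 at any size. Lower among bright was 233 unscaled, 174 with equal medians, 2 at 1 and 2445 at any size. The cause of these shifts was not tested, except that a stricter size or filter leaves fewer genes.

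The TGF-beta list median was -0.070 unscaled and -0.013 with equal medians, the mesenchymal list -0.0089 and the nucleolus list -0.032 unscaled. The endothelial list (2 genes) was -0.047 with the DU145 filter and ran from -0.058 (without EOS 2) to 0.37 (without EOS 1). With 1 array left out the integrin list ran from -0.37 to 0.050 (without EOS 1), and TGFBI from -2.01 to 0.16 (without EOS 2), with 0.019 without PGK 1. With 1 DU145 array left out, the medians of 18 of 39 lists changed sign, among them 6 whose pair medians lay on one side of 0; those of chemokines, actin, cholesterol and hypoxia genes are given beside their values. Among the 38 followed genes that lay 0.5 the same way in both pairs, only TGFBI changed sign in the settings run.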

Other observations

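Genes of class II antigen presentation, which are found on immune cells and on some carcinomas, were looked at after HLA-DMB appeared among the lower bright genes, so this family was chosen after its values were seen. HLA-DRB1 read 9.98 and 9.10 in PGK and 9.11 and 8.44 in EOS, lower in each pair, by -0.87 and -0.65. HLA-DMA was -1.08 and -0.24 and HLA-DPA1 -1.58 and 0.08. HLA-DQB1, whose probes resemble those of its relatives, was -0.54 and 0.11. CIITA, the class II activator, was dim, at -2.03 and 1.24. Also dim, CD74, the invariant chain, was -0.32 and -0.21. The factor RFX5 was bright, at -0.06 and -0.02. The basement membrane linkers NID1 and NID2 were -1.90 and -1.64, and -1.27 and -0.61, of which NID1 was dim.

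Other lists gave further values. Lysosome and autophagy genes lay below 0 in 19 of 26, where 52.8% of all genes tested did, and 10 in both pairs, where 26.5% did. Their median was -0.10, with -0.05 and 14 of 26 below 0 without EOS 1 and -0.21 without EOS 2. CTSH and HEXA, lysosomal hydrolases, were -1.12 and -0.65 and -0.55 and -0.31. The EGF receptor family and ligands lay below 0 in 7 of 10, where 52.8% of all genes tested did. Their median was -0.26 (-0.17 without EOS 2). EREG, an EGF receptor ligand, was -1.14 and -0.21, and ERRFI1, a feedback inhibitor of the receptor, -1.03 and -0.16. Hypoxia and glycolysis genes were opposite by pair, with medians of -0.15 and 0.32, and the median of the gene means was 0.06, but -0.11 without PGK 2 and -0.01 without EOS 2. ADM, a hypoxia-induced peptide, was 0.12 and 0.83. NRF2 and glutathione genes lay above 0 in 20 of 26 (47.2% of all genes tested did) and were higher in both pairs in 13 (23.4% were). Their median was 0.13, with 0.23 in pair 1 and -0.02 in pair 2, and without EOS 1 it was 0.03 with 14 of 26 above 0. OSGIN1, an NRF2 target, was 1.34 and 0.13, and SLC7A11, the cystine transporter, 0.69 and 0.21. Cholesterol and fatty acid genes lay below 0 in 19 of 23, with a median of -0.11, but the direction turned on single arrays: the median was 0.22 with 17 of 23 above 0 without EOS 1, and 0.10 with 14 above without PGK 2. They were lower in both pairs in 6 of 23, where 26.5% of all genes tested were. SCD, a desaturase, was -0.75 and -0.03.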
